A study of Mus musculus with 4 samples.

Results

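Genes that identify B cells and antibody-secreting plasma cells were followed in the mammary gland of mice carrying MMTV-PyMT, with and without a miR-9 knockout: Pax5, Pou2af1, Cd79a, Cd79b, Cd22, Blk, Ms4a1, Mzb1 and Jchain. They were taken by gene name, and all 9 were found among the 25806 genes listed in each of the 4 per-library tables. MMTV-PyMT is a transgene in which a mammary tumour virus promoter expresses an oncogene, polyomavirus middle T, in the mammary epithelium, and the mice of all 4 libraries carry it. The 2 control libraries come from females without the knockout and the 2 knockout libraries from females with a deletion of exon 1 of miR-9, littermates of mixed C57BL/6 background, with the glands taken at the hyperplastic stage. The labels give neither the age of the mice, nor which miR-9 gene was deleted, nor whether the deletion was homozygous or limited to a cell type. They do not say whether a library came from 1 animal or whether lymph nodes were removed from the glands.

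B cells carry an immunoglobulin on their surface, which signals through the paired chains encoded by Cd79a and Cd79b. The transcription factor encoded by Pax5 holds cells in the B lineage, and it is shut off when a B cell becomes a plasma cell. Plasma cells have lost most of the surface receptor machinery and secrete antibody instead. In the mammary gland they are known for making dimeric IgA, which the J chain links and which is carried across the epithelium into milk.

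The depth was similar in the 4 libraries, with normalised read counts that summed to between 15904798 and 16418668 per library. Of the 25806 listed genes, 22427 to 23319 were above 0 in a library. The defining epithelial genes of a gland were high in all 4 libraries, with Epcam, an epithelial adhesion gene, at 17731 and 16089 in the controls against 14986 and 13576 in the knockouts. Across all listed genes the libraries correlated at r = 0.959 to 0.978 on the log2 scale, and control 2 and knockout 1 were the least alike. Values are normalised read counts as the authors deposited them, which behave as whole reads divided by 1 factor per library. Fold changes are knockout minus control on the log2(value + 1) scale and come from a limma fit over 22455 genes, with Benjamini-Hochberg adjustment over all of them. This scale understates the change of low genes. With 2 libraries a group, permuting the labels exactly gives no two-sided p smaller than 0.33, and such a test was not used.

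All 9 identity genes passed the filter on low values, and all 9 had a positive log2 fold change, from 1.16 for Cd22 to 3.37 for Blk. The median was 2.09, against 0.00 over all 22455 genes tested. One of them, Pou2af1, rose past the limma threshold of an adjusted p of 0.05, while 0 fell, where 0.414% of all tested genes were called higher and 0.169% lower. At an unadjusted p under 0.05 there were 6 of the 9, against 18.0% of all tested genes. In 8 of the 9, all but Ms4a1, both knockout libraries lay above both controls, against 25.5% of the genes tested, and in 0 of the 9 both lay below, against 25.6%. In whole tissue, more cells of a type and more RNA per cell cannot be told apart.

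**Figure D1:**
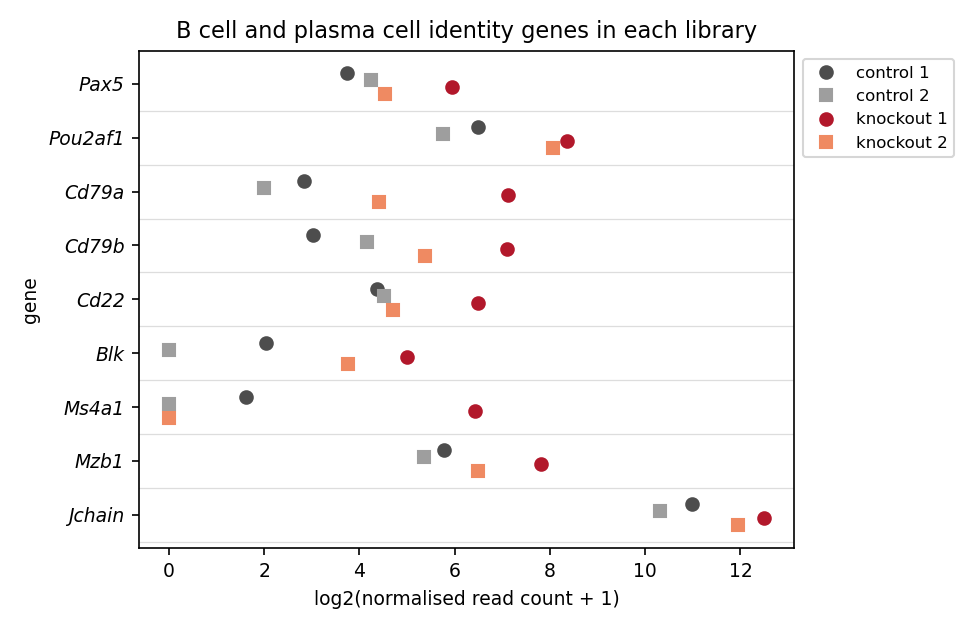
Each row is 1 identity gene and each point 1 library, on the log2(normalised read count + 1) axis. Knockout 1 is the highest library for every gene, knockout 2 lies close to it for Pou2af1 and Jchain, and Ms4a1 is listed at 0 in knockout 2 and control 2.

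The regulators of the B lineage were Pax5 and Pou2af1. Pou2af1 encodes OCA-B, a coactivator that binds the octamer factors Oct-1 and Oct-2 on immunoglobulin promoters and stays on in plasma cells. Pou2af1 (ENSMUSG00000032053, chromosome 9, 51213708 to 51240080, plus strand, GRCm38) had 89.4 and 52.8 in controls 1 and 2 and 327 and 268 in knockouts 1 and 2. Both knockout values were far above both controls and close to each other. The means were 71.1 ± 25.9 and 298 ± 41.9 (SD, n = 2), and the log2 fold change came to 2.09 (SE 0.31, limma adjusted p = 0.034). It was 1.95 without knockout 1 and 2.24 without knockout 2, where the adjusted p was 0.732 and 0.587 with 0 genes called over the whole table, and 2.11 with a pseudocount of 0.1 (limma adjusted p = 0.0806).

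Pax5 (ENSMUSG00000014030, chromosome 4, 44524757 to 44710487, minus strand) had 12.3 and 17.9 in the controls against 60.7 and 22.3 in the knockouts. Knockout 1 stood apart, and knockout 2 lay just above control 2. The log2 fold change was 1.26 (SE 0.56, limma adjusted p = 0.287), and it was 0.55 without knockout 1. Exons of Pax5 overlap those of the antisense genes Gm12462, which was at 0 to 2 in the 4 libraries, and 5730488B01Rik. The strand setting of the counting is not given in the sources used here, so reads from the shared bases cannot be assigned with certainty.

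The paired signalling chains of the B cell receptor were both low in the controls. Cd79a (ENSMUSG00000003379, chromosome 7, 24897381 to 24902197, plus strand), which encodes Ig-alpha, had 6.16 and 2.99 in the controls against 137 and 20.4 in the knockouts. Cd79b (ENSMUSG00000040592, chromosome 11, 106311341 to 106314762, minus strand), which encodes Ig-beta, had 7.19 and 16.9 in the controls against 135 and 40.8 in the knockouts. Both genes were higher in each knockout than in each control, and knockout 1 exceeded knockout 2 by 6.73-fold for Cd79a and 3.32-fold for Cd79b. The log2 fold changes were 3.35 (SE 0.88, limma adjusted p = 0.128) and 2.64 (SE 0.65, limma adjusted p = 0.108), and they fell short of the threshold with this spread between the knockouts. Without knockout 1 they were 2.0 and 1.79, and without knockout 2 they were 4.69 and 3.49. The ratio of Cd79a to Cd79b was 0.857 and 0.176 in the controls against 1.01 and 0.50 in the knockouts. The chains were near parity in knockout 1. The control ratios rest on values of 2.99 to 16.9, which are too low to judge parity there.

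Cd22 and Blk act on the receptor from either side. Cd22 encodes a sialic acid-binding inhibitory co-receptor, and Blk a kinase of the Src family found mainly in B cells. Cd22 (ENSMUSG00000030577, chromosome 7, 30865402 to 30880342, minus strand) had 19.5 and 21.9 in the controls against 88.5 and 25.3 in the knockouts. Only knockout 1 was clearly apart, as for Pax5. Its log2 fold change was 1.16 (SE 0.59, limma adjusted p = 0.337) and 0.28 without knockout 1. Part of the Cd22 exons, 479 bases, lies opposite the antisense gene Gm29439. Blk (ENSMUSG00000014453, chromosome 14, 63372836 to 63417037, minus strand) had 3.08 in control 1, was listed at 0 in control 2, and had 30.8 and 12.6 in the knockouts. The groups did not overlap, but all of its values were low. Its log2 fold change was 3.37 (SE 0.86, limma adjusted p = 0.109), and without control 1 it was 4.38 and past the threshold (limma adjusted p = 0.029). It was 2.35 without control 2 and 2.75 without knockout 1 (limma adjusted p = 0.227 and 0.732).

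Ms4a1 gave the sharpest split between the knockouts. It encodes CD20, a membrane protein of mature B cells that plasma cells lack. Ms4a1 (ENSMUSG00000024673, chromosome 19, 11249675 to 11266241, minus strand) had 2.05 in control 1, 84.6 in knockout 1, and was listed at 0 in control 2 and in knockout 2. The gene was thus high in a single library, and the groups overlapped. The log2 fold change of 2.40 had an SE of 2.30 (limma adjusted p = 0.634). Without knockout 1, and also without control 1, the gene fell below the filter, and no fit was made for it.

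The secretory genes were Mzb1 and Jchain. Mzb1 encodes a protein of the endoplasmic reticulum that helps assemble and secrete IgM, and it is also on in marginal zone B cells and B1 cells. Mzb1 (ENSMUSG00000024353, chromosome 18, 35647266 to 35649367, minus strand) had 53.4 and 39.9 in the controls against 225 and 89.4 in the knockouts. Both knockouts lay above both controls, and knockout 1 was 2.52-fold above knockout 2. Its log2 fold change was 1.60 (SE 0.45, limma adjusted p = 0.133), and 0.94 without knockout 1. Its coordinates in the files differ from those of GENCODE M21, in which 695 of its exon bases overlap a gene on the same strand, SPATA24. How reads of the shared bases were assigned is not given in the sources used here. Jchain, which encodes the joining chain of dimeric IgA and pentameric IgM, was by far the most abundant of the 9. Jchain (ENSMUSG00000067149, chromosome 5, 88519809 to 88527891, minus strand) had 2037 and 1264 in the controls against 5804 and 3928 in the knockouts. The knockouts were both above the controls and differed from each other by 1.48-fold. The means were 1651 ± 547 and 4866 ± 1327 (SD, n = 2), or 1.57 as log2 fold change (SE 0.31, limma adjusted p = 0.115). Without control 1 it was 1.92 and past the threshold (limma adjusted p = 0.00977), and without control 2 it was 1.23 and not past it.

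**Figure D2:**
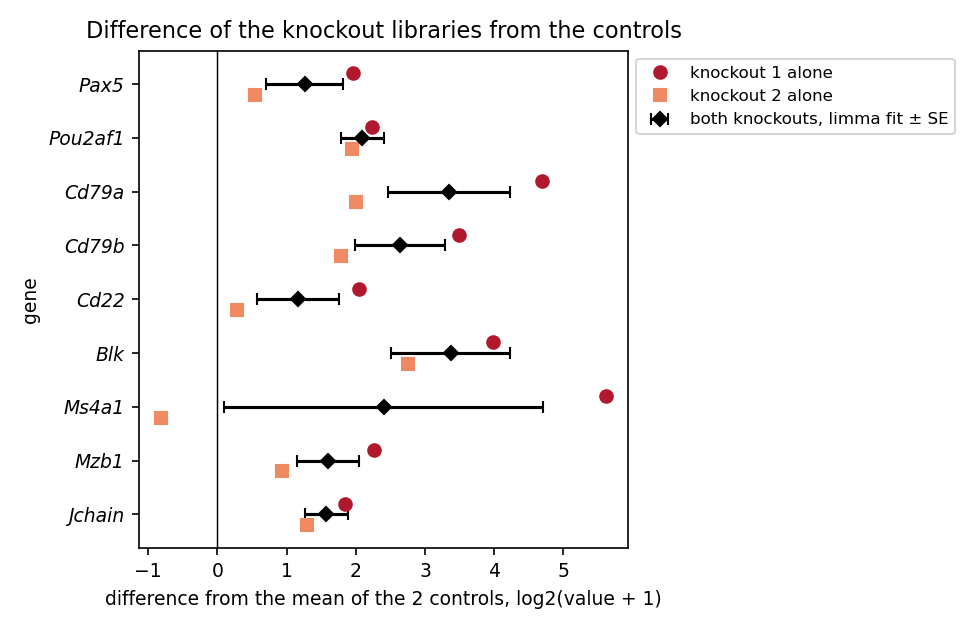
For each identity gene, the diamond is the log2 fold change of both knockouts against both controls with its SE from limma, and the other points are knockout 1 and knockout 2 alone against the control mean. The points of Pou2af1 lie at 2.24 and 1.95 and those of Jchain at 1.85 and 1.29, while those of Ms4a1 lie at 5.61 and -0.81.

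The genes therefore differed in how far knockout 1 stood above knockout 2. On the log2(value + 1) scale, 7 of the 9 were more than 2-fold higher in knockout 1 than in knockout 2, as were 9.14% of all tested genes, and the exceptions were Pou2af1 and Jchain with differences of 0.29 and 0.56. Between the controls the same differences had a median of 0.69 over the 9 genes, against 1.40 between the knockouts. The Jchain to Cd79a ratio of normalised read counts was 331 and 423 in the controls, 42.3 in knockout 1 and 193 in knockout 2, so knockout 1 had the most Cd79a for its Jchain. The ratio of Jchain to Pou2af1 was 22.8 and 23.9 in the controls, above the 17.7 and 14.7 of the knockouts.

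Levels of different genes were compared per kilobase of the gene length that the files give. In the controls the order of mean normalised read count per kilobase was Jchain at 656, Mzb1 at 51.5, Pou2af1 at 27.9, Cd79b at 8.43, Cd22 at 4.11, Cd79a at 3.14, Pax5 at 1.71, Blk at 0.571 and Ms4a1 at 0.166. The secretory genes and Pou2af1 thus led, and the ranges of Cd22 and Cd79a and those of Blk and Ms4a1 overlapped. In the knockouts the mean per kilobase was 1933 for Jchain, 174 for Mzb1, 117 for Pou2af1, 61.5 for Cd79b, 54.1 for Cd79a, 11.3 for Cd22, 8.06 for Blk, 6.83 for Ms4a1 and 4.69 for Pax5. Below Jchain the ranges over the 2 knockouts overlapped for each pair of neighbours except Pou2af1 and Cd79b, and Cd79a moved above Cd22 in the order of means.

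The identity genes were also set against Ptprc, which encodes CD45, the common leukocyte antigen. Ptprc itself had 526 and 424 in the controls against 881 and 730 in the knockouts, or 0.76 as log2 fold change (SE 0.16, limma adjusted p = 0.0763). Per 100 of Ptprc, Pou2af1 had 17.0 and 12.5 in the controls against 37.1 and 36.7 in the knockouts, and Jchain had 387 and 299 against 659 and 538. These genes, with Mzb1, Cd79a, Cd79b and Blk, kept both knockouts above both controls. Per 100 of Ptprc, Cd22 was 3.71 and 5.18 in the controls against 10.1 and 3.46 in the knockouts, and Pax5 was 2.34 and 4.24 against 6.89 and 3.06. For Cd22 and Pax5 knockout 2 then lay within or below the range of the controls.

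Sequences are shown for the microRNA itself and for the 1 identity gene with a match to its seed, since the comparison asks what the loss of miR-9 does to messages. Mature miR-9-5p has the same sequence at all 3 of its genes, at chr3:88215613-88215635, chr13:83738821-83738843 and chr7:79505279-79505301, all on the plus strand of GRCm38, from RefSeq. Capitals mark its seed, bases 2 to 8, and in Pax5 the site, which pairs with bases 2 to 7 and has an A opposite base 1.
miR-9-5p: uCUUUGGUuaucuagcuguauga
Pax5 3′ UTR: tgccaatttgCCAAAGAtgttggacta
The Pax5 match is a 7mer-A1, the complement of seed bases 2 to 7 followed by an A, at chr4:44525092-44525098 on the minus strand, in the longest annotated 3′ UTR of the gene (GENCODE M21). The longest 3′ UTRs of the other 8 identity genes held no 7mer or 8mer match to the seed. Among 15868 tested protein-coding genes with a 3′ UTR, 21.9% held such a match, and the median length was 1095.5 bases. The Pax5 3′ UTR is 6749 bases long and those of the other 8 are 303 to 1990, so Pax5 has the most room for a match. A match is a description of the letters and says nothing on whether the microRNA acts there.

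Promoters are shown for the genes that moved most alike in both knockouts, Pou2af1 and Jchain, and for Cd22, the only promoter with a match. RefSeq gave a 300-base window around the start site for 5 of the 9 genes, Pou2af1, Jchain, Cd79a, Cd22 and Pax5. Searched on both strands were the octamer ATGCAAAT, to which the partners of OCA-B bind, TCCCNNGGG for the B cell factor EBF, and GAGGAAGT for the leukocyte factor PU.1. The octamer was in 0 of the 5 windows, against 1.74% of 32851 promoters, and the PU.1 letters in 0, against 3.20%. The EBF letters were in Cd22, against 6.56% of promoters, with overlapping matches on both strands that the capitals mark. The Cd22 window lies inside the gene, 1314 bases from the start that the files give.
Pou2af1, chr9:51213440-51213739, plus strand: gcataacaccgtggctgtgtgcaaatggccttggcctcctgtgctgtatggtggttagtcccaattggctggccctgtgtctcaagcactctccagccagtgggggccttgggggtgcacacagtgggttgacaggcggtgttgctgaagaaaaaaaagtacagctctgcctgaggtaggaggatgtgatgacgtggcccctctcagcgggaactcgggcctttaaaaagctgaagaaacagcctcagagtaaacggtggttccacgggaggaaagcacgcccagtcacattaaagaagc
Jchain, chr5:88527848-88528147, minus strand: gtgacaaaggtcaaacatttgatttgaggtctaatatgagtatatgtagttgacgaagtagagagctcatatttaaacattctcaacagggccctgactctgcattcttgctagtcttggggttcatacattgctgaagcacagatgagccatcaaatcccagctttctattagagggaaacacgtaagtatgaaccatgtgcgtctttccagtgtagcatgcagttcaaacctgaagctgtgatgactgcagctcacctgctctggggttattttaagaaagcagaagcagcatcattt
Cd22, chr7:30878979-30879278, minus strand: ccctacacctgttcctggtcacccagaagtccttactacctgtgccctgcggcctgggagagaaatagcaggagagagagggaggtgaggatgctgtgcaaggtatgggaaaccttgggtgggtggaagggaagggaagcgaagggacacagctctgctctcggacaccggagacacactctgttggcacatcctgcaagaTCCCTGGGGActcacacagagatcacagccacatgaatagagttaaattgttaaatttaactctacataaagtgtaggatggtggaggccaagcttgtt

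Other genes of mature B cells differed in how far the knockouts lay apart. Of 22 further B cell identity genes, all tested, 0 passed the limma threshold, with 10 at an unadjusted p under 0.05 (18.0% over all genes). All 22 had a positive log2 fold change, against 50.4% of all tested genes, with a median of 0.99. In 13 of the 22 both knockouts lay above both controls, against 25.5% of all tested genes. More than 2-fold higher in knockout 1 than in knockout 2 were 11 of the 22, against 9.14% of all tested genes. The median difference between the knockouts was 1.09 on the log2 scale. Fcer2a, which encodes CD23, a low-affinity IgE receptor of mature follicular B cells, was listed at 0 in both controls and had 43.8 in knockout 1 and 4.86 in knockout 2. H2-Ob, a chain of the antigen-loading regulator H2-O, had 7.19 and 8.97 in the controls against 105.5 and 28.2 in the knockouts (log2 fold change 2.62, SE 0.64, limma adjusted p = 0.103). Pou2f2, which encodes Oct-2, the DNA-binding partner of OCA-B, had 42.1 and 46.8 against 108 and 106 (log2 fold change 1.25, SE 0.30, limma adjusted p = 0.101), level between the knockouts as Pou2af1 was. The median of this list was 1.51 for knockout 1 against the control mean and 0.50 for knockout 2.

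Of 17 further genes of receptor signalling, 0 passed the limma threshold, with 7 at an unadjusted p under 0.05 (18.0% over all genes), and the median log2 fold change was 0.87. Siglecg, an inhibitory lectin of B cells, was listed at 0 in control 1, was at 0.996 in control 2 and had 25.9 and 5.83 in the knockouts (limma adjusted p = 0.123). The adaptor gene Pik3ap1, also used by macrophages, had 305 and 216 against 574 and 540 (log2 fold change 1.11, SE 0.20, limma adjusted p = 0.0567), and Cd72, an inhibitory co-receptor, had 198 and 181 against 366 and 331 (log2 fold change 0.87, limma adjusted p = 0.0784). Both were even between the knockouts. Genes of the list that many gland cells use, such as Lyn and Plcg2, had log2 fold changes of -0.18 and -0.13.

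Antibody genes were higher in both knockouts. Of them 3, Ighd, Ighg3 and Igha, were also more than 2-fold higher in knockout 1 than in knockout 2, against 9.14% of all tested genes. Of 12 constant-region genes 11 were tested, with a median log2 fold change of 1.98. In all 11 both knockouts lay above both controls, against 25.5% of all tested genes. All 11 had an unadjusted limma p under 0.05, against 18.0% of all tested genes. Ighg1 rose from 127 and 140 to 807 and 624 (log2 fold change 2.40, SE 0.19, limma adjusted p = 0.00538), and Ighg2c rose from 270 and 163 to 1017 and 714 (log2 fold change 2.01, SE 0.28, limma adjusted p = 0.0415). Iglc1 stood at 1.28 as log2 fold change (SE 0.21, limma adjusted p = 0.0526). Igkc, the kappa light chain, had 3619 and 2039 against 14863 and 8254, and Igha 6456 and 3410 against 23085 and 11067, so that Igha made up between 81.8% and 87.5% of the summed heavy chain values in every library. Ighg3 had 1.03 in control 1, was listed at 0 in control 2, and had 48.8 and 15.5 in the knockouts. Ighm had 216 and 138 against 849 and 461 (log2 fold change 1.85, SE 0.34, limma adjusted p = 0.0735). Ighd, the heavy chain of naive B cells, had 3.08 and 0.996 in the controls, 142 in knockout 1 and 7.77 in knockout 2, and the ratio of Ighm to Ighd was 5.97 in knockout 1 and 59.4 to 138 in the other libraries. The segments of a locus are alike, and how the counting split reads between them is not given in the sources used here. Without knockout 1 the log2 fold changes of Ighg1 and Ighg2c were 2.21 and 1.76, and without knockout 2 they were 2.58 and 2.27, and neither passed in limma without either library. With a pseudocount of 0.1 Ighg2c also missed the threshold (limma adjusted p = 0.0666).

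**Figure D3:**
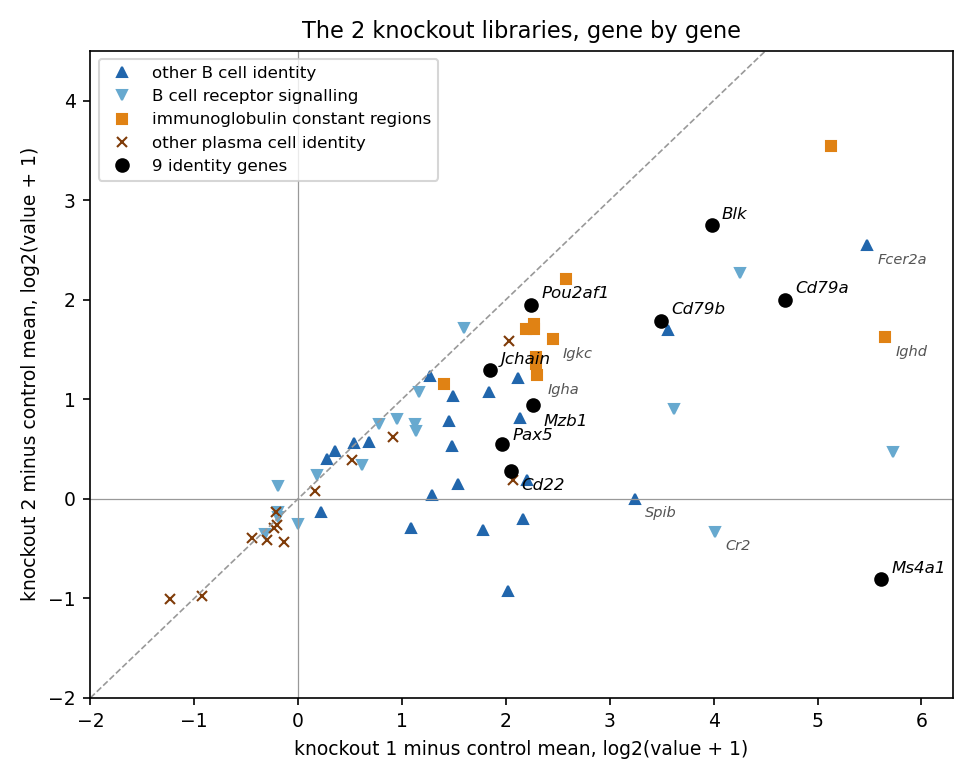
Each point is a tested gene of 1 of the 5 lists in the legend, with its difference from the mean of the controls in knockout 1 on the x axis and in knockout 2 on the y axis, both in log2(value + 1). The axes share the controls, and the dashed line marks equal differences. Pou2af1 lies near the line and Ms4a1, Cr2 and Spib far to the right of it, at or near 0 or below on the y axis.

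The further plasma cell genes did not move as a group, and which cells of the gland their values came from was not tested. Their control levels ranged widely, with Sdc1 at 2817 and 2115 and Txndc5 at 3281 and 3157, but Irf4 at 25.7 and 8.97. Of 13, 1 fell past the limma threshold and 0 rose, against 0.169% and 0.414% of all tested genes, and the median log2 fold change was -0.23. At an unadjusted p under 0.05 there were 6 of the 13 (18.0% over all genes). In 4, Prdm1, Irf4, Slamf7 and Txndc5, both knockouts lay above both controls, against 25.5% of all tested genes. In 6 both lay below, against 25.6%. The gene past the threshold was Creld2, a foldase-related gene of the endoplasmic reticulum stress response that epithelium also expresses. It fell from 1126 and 1359 to 647 and 627 (log2 fold change -0.96, SE 0.13, limma adjusted p = 0.0268). It did not pass without knockout 1, without knockout 2 or with a pseudocount of 0.1 (limma adjusted p = 0.732, 0.577 and 0.0618). Fkbp11, a prolyl isomerase of secretory cells, had 632 and 1094 against 353 and 414 (log2 fold change -1.12, SE 0.26, limma adjusted p = 0.105). Irf4, a transcription factor that plasma cells need, had 25.7 and 8.97 against 65.7 and 47.6 (log2 fold change 1.80, SE 0.54, limma adjusted p = 0.148). Xbp1, which drives the secretory program of plasma cells and of other secretory cells, had 24596 and 18543 against 17302 and 16080. The summed value of these 13 genes was 30272 to 36147 for the controls against 25719 to 27549 for the knockouts, and Xbp1 made up more of it than any other gene. Tnfrsf17, the plasma cell receptor BCMA, had 2.05 and 4.98 against 16.9 and 3.89.

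Genes of B cell precursors and of germinal centres did not pass. Of 7 precursor genes 2 were tested, with 0 past the limma threshold and 0 at an unadjusted p under 0.05 (18.0% over all genes). The median log2 fold change was -0.15, and Cd93, which endothelium also expresses, had 0.39. Vpreb1, a surrogate light chain gene of precursors, had 10.3 and 13.9 in the controls against 4.97 and 9.71 in the knockouts (limma adjusted p = 0.566), and Rag1, Rag2, Dntt and Vpreb2 were not analysed here. Of 7 germinal centre genes 0 passed in limma, with 0 at an unadjusted p under 0.05 (18.0% over all genes), and the median log2 fold change was 0.03. With so few genes tested, counts of 0 in these lists lie near that share. Mybl1 and S1pr2 had -0.55 and -0.26 on the log2 scale. Gcsam had 8.22 and 0.996 in the controls against 6.96 and 15.5 in the knockouts. The groups overlapped, and the log2 fold change, 1.42, was 2.52 without control 1 and 0.32 without control 2.

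Among 14 ligands and receptors that draw or keep B cells and plasma cells, 0 passed in limma, with 4 at an unadjusted p under 0.05 (18.0% over all genes), and the median log2 fold change was 0.61. Itgb7, the integrin chain of gut- and gland-homing lymphocytes, had 32.9 and 46.8 in the controls against 151 and 76.7 in the knockouts (log2 fold change 1.43, SE 0.41, limma adjusted p = 0.135). Ccl28, the epithelial chemokine known to draw IgA plasma cells to the lactating gland, had 48.3 and 35.9 against 174 and 69.9 (log2 fold change 1.39, SE 0.46, limma adjusted p = 0.179). Il6 had 15.4 and 12.0 against 3.98 and 3.89 (log2 fold change -1.56, limma adjusted p = 0.222).

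Markers of other cell types moved with the identity genes, and their part in the results was not tested. In mean centred log2 level the 9 identity genes stood at -0.83 and -1.33 in controls 1 and 2 and at 2.05 and 0.11 in knockouts 1 and 2. The 8 adipocyte genes had the same order of libraries, at -0.27, -1.26, 1.48 and 0.04. In knockout 1, 7 of the 8 were more than 2-fold higher than in knockout 2, against 9.14% of all tested genes. Their summed value was 4948 and 2235 in the controls against 13072 and 4268 in the knockouts, and 0 passed in limma, with 3 at an unadjusted p under 0.05 (18.0% over all genes). Plin1, Lep and Aqp7 stood at 3.03, 1.75 and 2.25 as log2 fold changes (limma adjusted p = 0.267, 0.245 and 0.115).

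The 16 T cell genes summed to 528 and 468 in the controls against 937 and 678 in the knockouts, none at 0 in any library, with 0 past the limma threshold, 6 at an unadjusted p under 0.05 (18.0% over all genes) and a median log2 fold change of 0.91. Cd3e, of the T cell receptor complex, had 7.19 and 9.96 against 26.9 and 17.5 (limma adjusted p = 0.259), and Cd3g, Cd2 and Trbc2 had log2 fold changes of 1.41, 1.48 and 0.92. More than 2-fold higher in knockout 1 than in knockout 2 were 3 of the 16, against 7 of the 9 identity genes and 9.14% of all tested genes. The 8 general leukocyte genes summed to 7396 and 6845 against 9592 and 8456, with 0 past the limma threshold, 7 at an unadjusted p under 0.05 (18.0% over all genes), and log2 fold changes of 1.11 for Rac2 and 0.94 for Cd52.

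Genes of lymph node stroma had a median log2 fold change of 1.20 over 9 tested rows, with 0 past the limma threshold and 3 at an unadjusted p under 0.05 (18.0% over all genes). Their summed value was 421 and 168 in the controls against 608 and 517 in the knockouts. Cxcl13, the chemokine of B cell follicles, had 91.4 and 27.9 against 214 and 102 (log2 fold change 1.53, SE 0.62, limma adjusted p = 0.276), with knockout 2 close to control 1. Ccl21a, a chemokine of T cell zones and lymphatic vessels, had 24.7 and 14.9 against 54.7 and 119 at its row on the scaffold JH584294.1, and belongs to near-identical copies between which the split of reads is uncertain. Coch had 1.03 and 0.996 against 7.96 and 8.74. Madcam1, of high endothelial venules, was at 2.05 and 3.98 in control 1 and knockout 1 and listed at 0 in the other libraries, and Ccl19 and Chst4 were not analysed here.

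Plasmacytoid dendritic cells, which also express some of the 9 genes, had a median log2 fold change of 0.34 over 9 markers, 0 past the limma threshold and 2 at an unadjusted p under 0.05, near the 18.0% over all genes. Their summed value was 7917 and 10660 in the controls against 10545 and 10347 in the knockouts. The defining gene Siglech had 15.4 and 18.9 in the controls against 42.8 and 64.1 in the knockouts (log2 fold change 1.56, SE 0.42, limma adjusted p = 0.122), with knockout 2 the higher. Irf7 and Runx2 had 0.41 and 0.46. Of 8 epithelial genes, Krt19, a luminal keratin, rose with 0.98 as log2 fold change (SE 0.14, limma adjusted p = 0.0351), which did not pass without control 2 at 0.81 (limma adjusted p = 0.0778) or with a pseudocount of 0.1 (0.081), nor without knockout 1 or knockout 2. In the other 7 both knockouts lay below both controls, against 25.6% of all tested genes. The junction genes Cldn7 and Cldn4 had -0.61 and -0.56, and the summed value of the 8 was 84221 and 84465 in the controls against 83138 and 75188 in the knockouts.

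**Figure D4:**
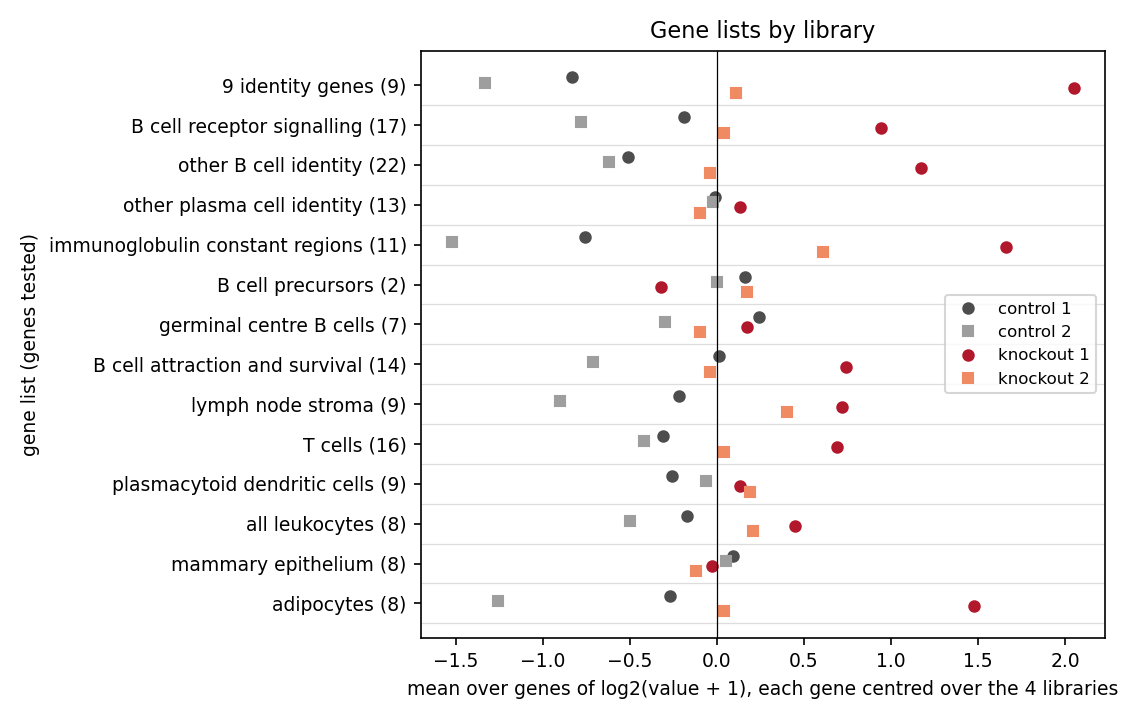
Each row is a gene list with its number of tested genes, and each point is the mean over those genes of the centred log2(value + 1) in 1 library. The 9 identity genes and the adipocyte genes both run from control 2 through control 1 and knockout 2 to knockout 1, at -1.33 to 2.05 and -1.26 to 1.48, and the mean of the epithelial genes, which holds members that differ in direction, runs from -0.12 to 0.09.

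Among 13032 tested genes with a mean of at least 50, leaving out the 9 and the immunoglobulin segments, the 8 with the profile nearest to the mean profile of the identity genes over the 4 libraries were Slc36a2, Dgat2, Pck1, Sprr1a, Scgb1b27, Gm9780, Adrb3 and Car3. Their Euclidean distances on the centred log2 scale were 0.30 to 0.59, where the median gene had 2.63. Dgat2, which makes triglyceride, had 219 and 134 in the controls against 1199 and 420 in the knockouts, and Adrb3, the beta-adrenergic receptor of fat cells, had 82.2 and 37.9 against 416 and 97.1. The genes were picked for this likeness, so the order of their libraries, with control 2 lowest and knockout 1 highest, follows from the choice. Of the 8, 0 passed the limma threshold, with adjusted p from 0.0908 for Sprr1a to 0.371 for Scgb1b27. With 4 libraries, such likeness describes the order and spacing of the libraries and no more.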

How the data were processed

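RNA sequencing of 4 mammary gland libraries, 2 per group, was analysed from 1 table per library. The deposited values are a normalised signal: in each table they were whole multiples of 1 step (0.971 to 1.03, relative tolerance 1e-06), as read counts divided by 1 factor per library would be. The steps of 2 libraries lie too close to 1 for the reads to be taken as recovered, so no count test was run. Bowtie 0.12.2 and the builds hg38, GRCm38 and mm10 are named, without a role, per the submitters' processing notes. How reads were counted, with which strand setting, and how factors were set are not given in the sources used here.

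Groups came from the labels, which do not say whether libraries are separate animals. The p-values therefore reflect variation among these libraries alone, which may be technical. Genes with a value of at least 1 in 2 or more libraries (22455) were tested on log2(value + 1) with limma 3.58.1 (trend, robust) in R 4.3.3, with Benjamini-Hochberg adjustment over all of them and a threshold of 0.05. The test was checked on simulated data in which only well-measured genes were changed and the libraries of a group varied little. That check does not cover genes as low, or as uneven between the knockouts, as most of the identity genes. Tables were joined with pandas 2.3.3 in Python 3.11.15. Coordinates are GRCm38, and sequences come from RefSeq (GRCm38.p6) and GENCODE M21. The named genes were the 9 identity genes, the genes of each list by the smallest p, defining markers, and the 8 nearest profiles. Other genes named beside these were chosen after their values were seen. The members and lists were chosen with earlier results of these data known. Alternatives were another pseudocount, no filter, quantile normalisation, voom weights, a replicate block and leaving out each library. Values of 3 genes of the lists are not reported here.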

Additional observations from a re-analysis of the deposited data

How the results depend on the processing

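Over all genes limma called 131 in the reported fit, 33 with a pseudocount of 0.1, 332 with no filter and 257 with quantile normalisation, and between 0 and 2361 when 1 library was left out. The 0 came without knockout 1 and without knockout 2, with 1384 and 1805 genes at an unadjusted p under 0.05, and the 2361 without control 1. Of the 9 identity genes 1 passed, against 0 with a pseudocount of 0.1 and 0 to 3 with 1 library left out. Of the other lists 4 genes passed, against 1 with a pseudocount of 0.1, 10 with no filter, 8 with quantile normalisation, 7 with voom weights and 0 to 38 with 1 library left out. Among the identity genes and the other named genes, no called value changed sign under these alternatives. The sign was not followed for the rest of the called genes, and the causes were not tested. Ms4a1 fell below the filter without knockout 1 and without control 1. With 2 libraries a group, leaving 1 out assumes that the lone library varies like the others.

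With the replicate number as a block, 367 genes were called, 2 of the identity genes (Pou2af1 and Jchain, limma adjusted p = 0.026 and 0.011) and 19 of the other lists. Deviations of same-numbered libraries from their group means correlated at 0.118 over 22455 genes, and with 2 pairs the samples share only a number.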
